A study of Mus musculus with 6 samples.

Results

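The genes described are the nuclear genes of the respiratory chain and ATP synthase, read from ribosome-bound RNA of parvalbumin neurons. Of 84 gene symbols in the count table that follow the naming of these subunits (Nduf, Sdh, Uqcr, Cyc1, Cycs, Cox4 to Cox8 followed by a, b or c, and Atp5), 76 reached at least 1 CPM (counts scaled to a column total of 1000000) in at least 2 of 4 libraries. These 76 comprised 35 genes of complex I, 4 of complex II, 9 of complex III, cytochrome c, 11 of complex IV and 16 of complex V, assigned by symbol. The whole table holds 23306 rows, of which 12449 genes had enough counts to be tested, all 76 among them. The minimum used only the level and not the difference between genotypes.

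The study examined what parvalbumin neurons of the frontal cortex translate when they lack Fxr1, which binds RNA and is a relative of the fragile X protein. All mice were males of strain C57BL6. Both groups carried a parvalbumin-driven Cre transgene and 1 Rpl22 allele that Cre recombination turns into an HA-tagged form, so that ribosomes of Cre-expressing cells can be immunoprecipitated (RiboTag). The groups were the Fxr1 conditional knockout (cKO), deleted by the same Cre, and wild type. The deletion therefore covers any cell that expressed the driver, in every region and since its onset. The sources used here give neither age nor whether animals were pooled. Of 6 samples, 4 could be tied to a column of the table by name: wild type 2 and 3, and knockout 1 and 3. The numbers only name the samples and pair none. Nothing in the labels says that libraries came from separate animals, and p-values then speak only of the spread among these libraries.

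The 4 libraries held 9696126 to 10301280 counts. Fxr1 measured 98.4 and 101 CPM in wild type, against 17.8 and 18.7 CPM in the knockout, which follows the labels. Pvalb, the calcium-binding protein that defines these neurons, measured 262, 264, 248 and 241 CPM in wild type 2, wild type 3, knockout 1 and knockout 3. None of the 10 parvalbumin neuron markers was at 0. Their sum was 11555 and 11692 CPM in wild type, with 11215 and 11256 CPM in the knockout, lower in both, and 3 of 10 had a higher fitted level there. Markers of other cells were also present: the 7 oligodendrocyte genes summed to 304 and 274 CPM in wild type, against 280 and 393 CPM in the knockout, and 6 of 7 had a higher fitted level in the knockout. The 5 striatal neuron genes in the table summed to 31.5 and 31.2 CPM in wild type and to 41.7 and 39.9 CPM in the knockout, with 5 of 5 fitted higher. Excitatory neuron genes (852 to 942 CPM over the libraries, 5 of 6 fitted higher) and astrocyte genes (614 to 716 CPM, 5 of 7) overlapped between the groups. The sums of microglia, other interneuron and endothelial genes overlapped as well. Of those tested, 1 of 6 microglia, 3 of 5 other interneuron and 2 of 3 endothelial genes were fitted higher. Knockout 1 stood apart in the ribosomal precursor Rn45s, at 7110 CPM against 2827 to 3152 CPM in the other libraries. The part of these features in the values below was not tested. In such pulled-down RNA, fewer captured cells and less RNA per cell cannot be told apart.

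The respiratory chain is built from proteins of the nuclear and mitochondrial genomes. Complex I takes electrons from NADH and complex II from succinate, both pass them through coenzyme Q to complex III, cytochrome c carries them to complex IV, which reduces oxygen, and complex V uses the resulting proton gradient to make ATP. Parvalbumin neurons fire fast and are known for dense mitochondria and a high energy demand. Subunits encoded by mitochondrial DNA were not analysed here.

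Respiratory chain genes were among the more abundant messages on these ribosomes. Together the 76 genes took 10159 and 10101 CPM in wild type, against 10086 and 9865 CPM in the knockout, or 0.986% to 1.02% of all counts. To compare genes with each other, CPM were divided by the length of the exons of each gene's protein-coding transcripts (CPM per kb). The median gene of the set stood at 64.3 CPM per kb, against 6.86 CPM per kb over the 12328 tested genes with a length. Of the 76, 51 lay in the top 10% of tested genes on this scale and 66 in the top 25%, while 4 lay below the median gene. By CPM, 24 genes were at 100 or more, 50 between 10 and 100, and 2 under 10. These last were Ndufb4 at 3.93 CPM and Atp5g2 at 4.27 CPM, the genes just inside the minimum. Just outside it lay Atp5l at 0.771 CPM and Cox8b at 0.699 CPM.

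**Figure D1:**
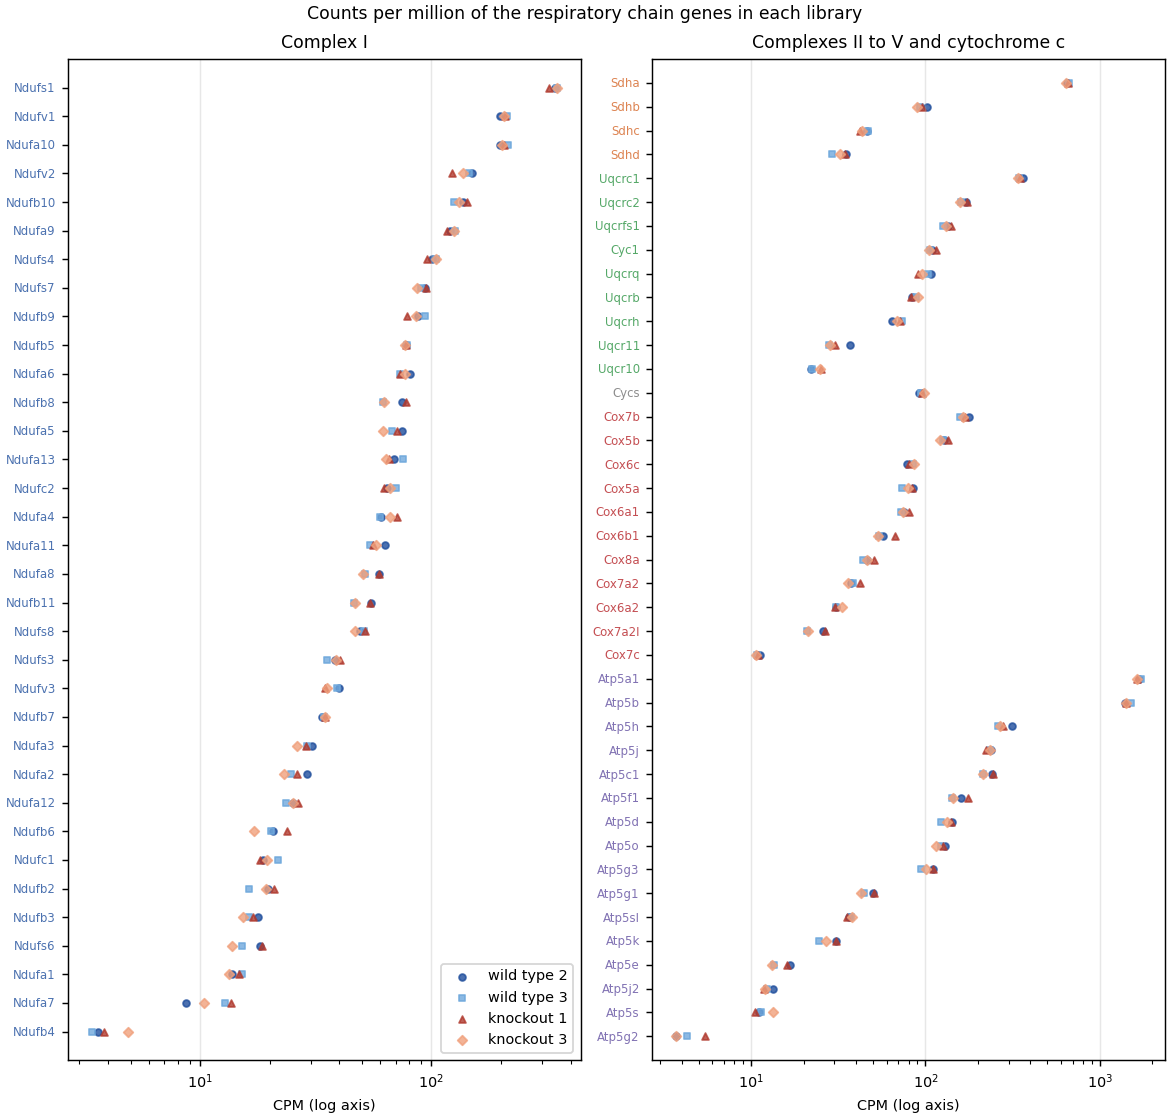
Level of 75 of the 76 genes in CPM (x axis, logarithmic) in the 4 libraries, with wild type in blue and the knockout in red. Gene names are coloured by complex. The libraries of a gene lie close together, and the genes run from 3.93 CPM for Ndufb4 to 1666 CPM for Atp5a1 as means over the libraries.

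Some of these genes carry binding motifs of transcription factors known for mitochondrial genes. RefSeq promoter windows (build GRCm38.p6, from 250 bases before to 50 after the start) matched 61 of the 76 symbols. They were searched for 4 motifs on both strands. The NRF1 motif, GCGCATGCG, stood in 8 of 61 windows (13.1%), against 4.31% of 9240 tested genes and 1.95% of all 27025 genes with a window. Those 8 genes were Cycs, Cox6a1, Atp5k, Atp5g2, Ndufa8, Ndufa11, Uqcr11 and Uqcrc1, which span all complexes but complex II. The YY1 motif AAGATGGCG stood in 7 windows (11.5%, against 3.67% of tested genes and 1.64% of all). The ERR motif TNAAGGTCA stood in 3 (4.92%, against 0.931% and 1.43%). The GABP motif CCGGAAGTG stood in 2 (3.28%, against 4.91% and 2.25%). NRF1 matches on opposite strands can overlap each other, and a match is a string of letters and not a shown binding site. The stretches around the NRF1 motif of 3 genes are printed to show where it lies and what surrounds it, with the bases matched on either strand in capitals. The motif itself is alike because the search asked for it. All 3 lie on the minus strand of GRCm38.p6 and are written 5′ to 3′ in the direction of the gene, upstream of its RefSeq start. In GENCODE M21, Atp5k spans chr5:108433244-108434448, so that its start there lies inside the printed stretch.
Cycs, chr6:50566592-50566660: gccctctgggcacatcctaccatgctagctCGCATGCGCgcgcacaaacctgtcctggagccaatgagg
Cox6a1, chr5:115349081-115349150: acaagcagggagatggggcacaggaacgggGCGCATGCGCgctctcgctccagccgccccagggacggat
Atp5k, chr5:108434410-108434479: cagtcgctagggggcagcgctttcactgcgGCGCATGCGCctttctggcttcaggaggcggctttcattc
In Cox6a1 and Atp5k the motif reads on both strands over 1 run of letters, while in Cycs it reads on the strand opposite to the gene.

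Complex V held the largest share of the summed CPM of the set, which is not scaled to length. Its 16 genes made up 44.9% of the summed CPM, against 28.0% for the 35 genes of complex I, 10.6% for complex III, 8.20% for complex II, 7.38% for complex IV and 0.944% for cytochrome c. Most of the complex V mean of 4510 CPM came from Atp5a1 (1666 CPM) and Atp5b (1431 CPM). The median gene stood at 96.0 CPM per kb in complex V, 87.4 in complex III, 85.0 in complex IV, 54.9 in complex II and 52.8 in complex I, with Cycs at 30.4. These medians move with the length assigned to a gene. With the mean length of RefSeq-linked transcripts, chosen after seeing the data, they were 121 in complex V, 93.9 in complex IV, 87.4 in complex III, 59.6 in complex I and 54.9 in complex II, so that complex IV passed complex III and complex I passed complex II.

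**Figure D2:**
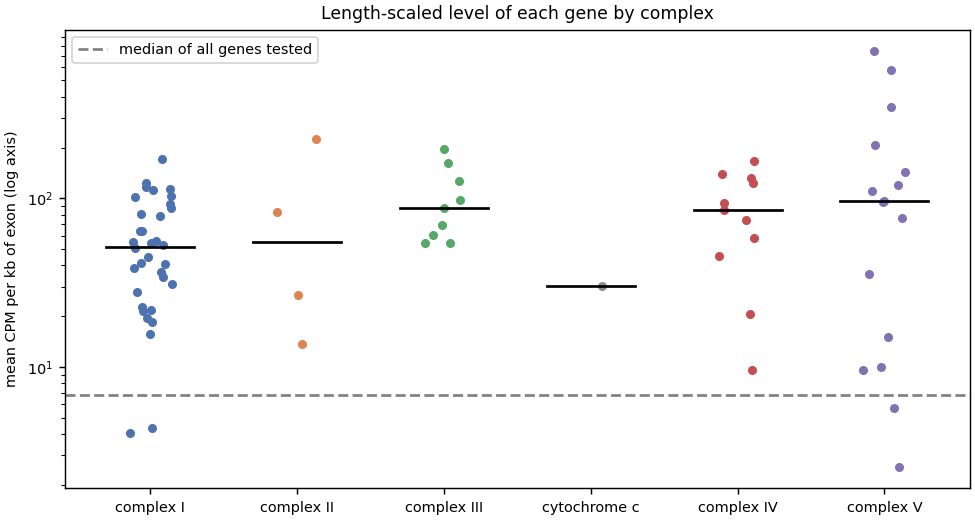
Mean CPM per kb of exon over the 4 libraries (y axis, logarithmic) for 75 of the 76 genes, by complex; bars mark the median of the genes drawn in each complex and the dashed line the median of all tested genes, 6.86 CPM per kb. The spread within complexes I and V is wider than the differences between complex medians.

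In complex I, the core subunits, which hold the flavin, the iron-sulfur clusters and the coenzyme Q site, were unevenly represented. The accessory subunit Ndufb10 stood at 172 CPM per kb. Ndufv1, which binds the flavin, stood at 116 CPM per kb, Ndufs1 at 114, Ndufs7 at 92.8, Ndufv2 at 64.4, Ndufs8 at 38.5 and Ndufs3 at 36.5. The lowest were the accessory subunits Ndufb4 at 4.04 and Ndufb2 at 4.36 CPM per kb. The value of Ndufb2 rests on a long annotated exon union: with RefSeq-linked transcripts it was 41.9 CPM per kb, while Ndufb4 stayed at 4.04. Ndufb4 is also one of 9 members for which at least 20% of the 50-base stretches of the transcript occur in other genes' transcripts (37.0%). Reads from such stretches may have been dropped or shared.

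Complex II, made of 4 nuclear subunits that also form an enzyme of the citric acid cycle, spanned 16.4-fold. Sdha, the flavoprotein, stood at 225 CPM per kb and the iron-sulfur subunit Sdhb at 83.2, against 26.6 for Sdhd and 13.7 for Sdhc, the pair that anchors the enzyme in the membrane. The levels of the catalytic pair thus exceeded those of the membrane pair in the mean over the libraries.

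Complex III was the most even complex with several genes, with a 3.61-fold range. Uqcrc1, a core protein, stood at 196 CPM per kb and Uqcrb at 161. The Rieske iron-sulfur protein Uqcrfs1 stood at 97.4, the core protein Uqcrc2 at 87.4 and cytochrome c1, Cyc1, at 60.8. The lowest were Uqcr10 at 54.5 and Uqcrq at 54.3.

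In complex IV, whose nuclear subunits surround a mitochondrially encoded core, Cox7b (167 CPM per kb) and Cox5b (139) were the highest and Cox7a2l (20.7) and Cox7c (9.66) the lowest. Cox7a2l is named as a subunit but is known as a factor that joins complexes III and IV. Cox4i1, the ubiquitous form of subunit 4, falls outside the naming rule. It stood at 250 CPM per kb, above every complex IV gene of the set. In complex V, the catalytic beta and alpha subunits Atp5b (747 CPM per kb) and Atp5a1 (574) led, followed by Atp5h (348), a subunit of the peripheral stalk. The gamma subunit of the rotor, Atp5c1, stood at 120. Genes were placed in complex V by symbol, which does not show that each encodes a structural subunit. Among the genes so placed, the lowest were Atp5s at 5.69 and Atp5g2 at 2.55 CPM per kb. The ratio of highest to lowest was 293.

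Several subunits exist as 2 or more gene copies, and in most pairs 1 copy held nearly all of the level. The exception among the complex IV pairs was subunit 6a. Its form Cox6a2 (chr7:128205435-128206387, minus strand, mm10) is best known from heart and skeletal muscle and is also known in parvalbumin interneurons. Cox6a2 measured 30.7 and 30.5 CPM in wild type, against 30.1 and 33.3 CPM in the knockout, from 298 to 343 counts a library, beside 75.3, 72.1, 80.2 and 74.5 CPM for the ubiquitous Cox6a1. On the length-scaled level Cox6a2 made up 25.8% ± 1.40 (SD, n = 4) of the pair. Its share was 25.5% and 26.2% in wild type and 24.0% and 27.3% in the knockout, and the knockout libraries enclosed the wild type ones.

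The other tissue-specific forms were at or near the limit of counting. Cox7a1, the muscle form of subunit 7a, had 2 to 4 counts a library beside 362 to 431 for Cox7a2. Cox8b had 12 and 9 counts in wild type, against 3 and 4 in the knockout beside 449 to 516 for Cox8a. Both wild type libraries of Cox8b lay above both knockout libraries, at counts too low for the gene to enter the test. Cox6b2, the testis form, had 0 counts in every library beside 550 to 680 for Cox6b1, and Cox8c had 0 as well, which allows at most 3 counts or 0.291 to 0.309 CPM. Cox4i2, known for its oxygen-dependent expression in lung, had 0 to 3 counts beside 1853 to 2006 for Cox4i1, and Cox7b2 had 2 to 4. Ndufa4l2, a hypoxia-induced relative of Ndufa4, had 3 counts in each wild type library and 0 in each knockout library. These limits cover counting error only.

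The c subunit of ATP synthase forms the rotating ring in the membrane and is encoded by Atp5g1, Atp5g2 and Atp5g3, which differ in the targeting peptide that is removed on import. Atp5g3 measured 111, 94.8, 110 and 101 CPM in wild type 2, wild type 3, knockout 1 and knockout 3, Atp5g1 49.8, 44.6, 50.6 and 42.8 CPM, and Atp5g2 3.71, 4.27, 5.41 and 3.69 CPM. Scaled to length, Atp5g3 stood at 144 CPM per kb, Atp5g1 at 9.55 and Atp5g2 at 2.55. Against Atp5g3 alone, Atp5g1 made up 6.22% ± 0.262 and Atp5g2 1.74% ± 0.304 of the pair (SD, n = 4). With RefSeq-linked lengths the values of Atp5g1 and Atp5g2 were 17.7 and 5.84 CPM per kb, and the order of the 3 genes was kept.

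**Figure D3:**
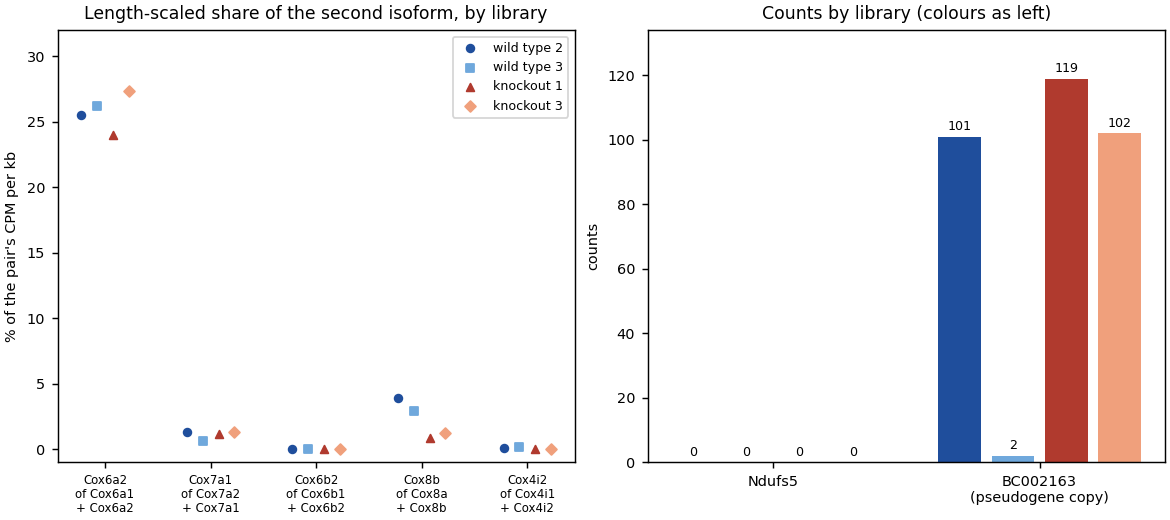
Left, share of the second form in the summed CPM per kb of 5 complex IV pairs, 1 symbol per library: Cox6a2 lies between 24.0% and 27.3%, Cox8b between 0.880% and 3.92%, and the other 3 at 1.34% or less. Right, counts of Ndufs5 and of its pseudogene copy BC002163 in each library: Ndufs5 is at 0 in all 4, and BC002163 is at 2 in wild type 3 and at 101 to 119 in the others.

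A complex I subunit was missing from the counts altogether. Ndufs5 (chr4:123712710-123718202, mm10), an accessory subunit, had 0 counts in all 4 libraries, which allows up to 0.291 to 0.309 CPM, whereas the median gene of complex I measured 57.6 CPM. A processed pseudogene, BC002163 (chr16:42955631-42955949, plus strand), has the same sequence as the Ndufs5 coding region at 317 of 319 aligned positions (99.4%). It lies within the locus of Zbtb20 and overlaps none of its exons. The sequences are shown because so few of these aligned coding positions differ between the loci. They are the first 120 bases of the Ndufs5 coding sequence and the matching stretch of the pseudogene transcript. Both come from the GENCODE M21 transcripts and are written 5′ to 3′, with the differing bases in capitals.
Ndufs5: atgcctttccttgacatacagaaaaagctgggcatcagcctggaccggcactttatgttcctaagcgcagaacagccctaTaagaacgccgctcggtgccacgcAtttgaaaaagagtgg
BC002163: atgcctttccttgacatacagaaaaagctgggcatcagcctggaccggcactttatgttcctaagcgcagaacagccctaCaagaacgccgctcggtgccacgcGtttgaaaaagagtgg
Both differences among the 319 aligned coding positions fall in this stretch.

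BC002163 had 101 and 2 counts in wild type, against 119 and 102 counts in the knockout. Wild type 3 alone lacked nearly all of it. In CPM the libraries stood at 10.4, 0.194, 11.7 and 9.91, so that the other wild type library lay between the knockout ones. Its log2 fold change was 1.06 (SE 1.44, unadjusted p = 0.533, edgeR), which is no call. Among 9900 genes with at least 50 counts in 3 libraries, BC002163 was the only one whose remaining library held 10% or less of the lowest of the 3. Zbtb20, around it, measured 144, 121, 134 and 131 counts. This gene was singled out after its values were seen, and whether its reads come from Ndufs5 was not tested. Of the stretches of 50 bases in the Ndufs5 transcript, 31.1% occur in the transcript of another gene, BC002163. The remaining stretches occur in no other gene's transcripts, and Ndufs5 still had 0 counts in every library. Why it had none was not tested. Sharing was not particular to Ndufs5. Of 76 members, 34 share at least 1 stretch of 50 bases with transcripts of other genes, and 9 share 20% or more. The part of sharing in their counts was not tested. Atp5l, the g subunit of ATP synthase, shares 68.5% and had 11, 7, 5 and 8 counts. Uqcrb shares 43.2% and stood near the top of complex III, and across the 76 genes the Spearman correlation of CPM per kb with the shared percentage was -0.112, a description over genes that share libraries.

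The knockout comparison asked whether loss of Fxr1 shifts the ribosome-bound messages of the respiratory chain. No gene of the 76 passed an adjusted p of 0.05 (edgeR quasi-likelihood test, Benjamini-Hochberg over all 12449 genes; smallest adjusted p 0.998), where 4 genes in all did (0.0321%). At an unadjusted p under 0.05 there were 2 of 76 (2.63%), both lower in the knockout, against 402 of all tested genes (3.23%), which is near the background. DESeq2 called 0 of the 76, with 0 at an unadjusted p under 0.05, where 0.707% of all tested genes were. Limma voom called 0, with 2 (2.63%) at that level, against 3.08% of all tested genes. The median log2 fold change of the 76 was -0.0055 (range -0.18 to 0.31), beside -0.0015 over all tested genes. Fitted values were above 0 for 36 of 76 (47.4%), against 49.6% of all tested genes. That count rested on single libraries: it was 20 without knockout 1, 49 without knockout 3, 44 without wild type 2 and 36 without wild type 3.

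The intervals of the fold changes were narrow. The 95% interval of the fold change lay within 1.5-fold in either direction for 74 of 76 genes (97.4%), against 72.1% of all tested genes, and the interval lay within 2-fold for all 76. The median SE of the log2 fold change was 0.09 in the set and 0.13 over all tested genes. The tested genes were not matched for level: their median was 22.7 CPM, against 68.6 CPM in the set. The part of level in these contrasts was not tested. The exceptions to the 1.5-fold range were the least abundant members, Ndufb4 and Atp5g2. Levels were above wild type in both knockout libraries for 6 genes (7.89%), beside 14.9% of all tested genes, and below in both for 10 (13.2%), beside 15.2%, on CPM scaled by TMM (edgeR's normalization). By column totals these counts were 7 and 9. In counts simulated for a comparison of this size, 83.6% of 67 genes changed 1.5-fold and all 67 changed 2-fold were called. The changed genes were drawn from those at 10 CPM or more, which leaves out Ndufb4 and Atp5g2. Spread followed the trend over genes, without a spread particular to each gene. Many more genes were changed than the 4 called in the real data. These shares may therefore overstate what could be detected here.

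**Figure D4:**
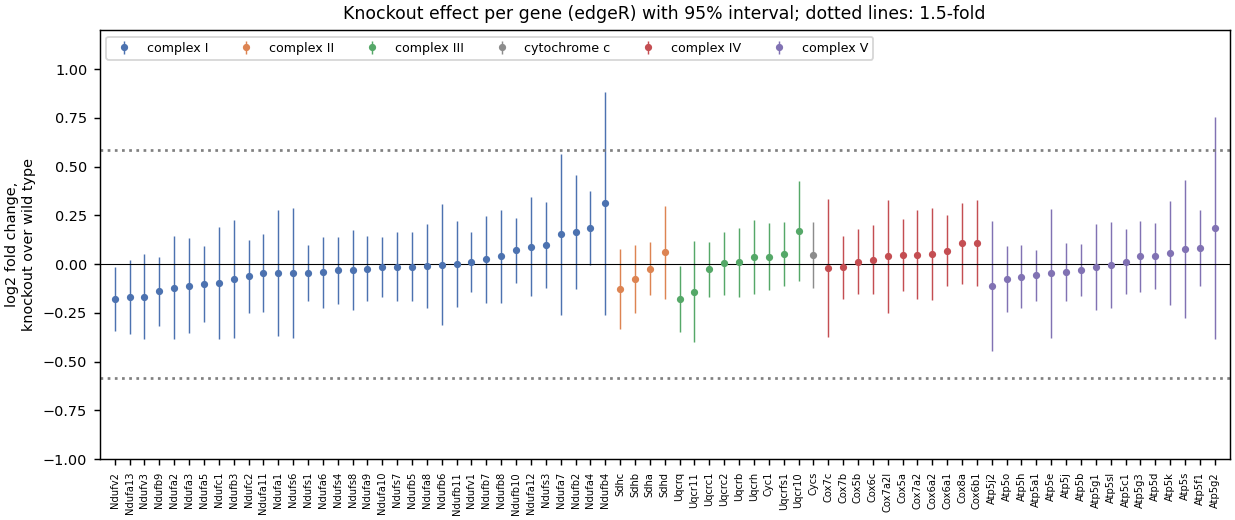
Log2 fold change of the knockout over wild type (y axis) with its 95% interval from edgeR for 75 of the 76 genes, sorted within each complex; dotted lines mark 1.5-fold. The points lie on both sides of 0 in complexes I to V, and only the intervals of Ndufb4 and Atp5g2 cross a dotted line.

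The 2 genes with an unadjusted p under 0.05 belong to different complexes. Ndufv2 (chr17:66078638-66101559, minus strand), which holds an iron-sulfur cluster beside the flavin of complex I, measured 149 and 145 CPM in wild type, against 122 and 137 CPM in the knockout. Its log2 fold change was -0.18 (SE 0.08, unadjusted p = 0.0344, adjusted p = 0.998, edgeR). Uqcrq (chr11:53427922-53430831, minus strand), a small subunit of complex III, measured 107 and 104 CPM in wild type, against 90.5 and 95.7 CPM in the knockout, with a log2 fold change of -0.18 (SE 0.08, unadjusted p = 0.0396, adjusted p = 0.998). Both genes lay lower in both knockout libraries, and neither passes the correction over all genes. DESeq2 gave unadjusted p-values of 0.0882 for Ndufv2 and 0.109 for Uqcrq. With each library left out in turn, the unadjusted p of Uqcrq was 0.07 to 0.178 (edgeR), and that of Ndufv2 was 0.0186 without knockout 3 and 0.0943 to 0.296 without any of the others. Members at an unadjusted p under 0.05 then numbered 0 without wild type 2 (3.71% of all tested genes), 2 others without wild type 3 (3.17%), 0 without knockout 1 (4.60%) and 4 without knockout 3 (5.26%, against 5.68% of all tested genes).

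By complex, the median log2 fold change was -0.02 in complex I, where 12 of 35 fitted values were above 0, and -0.05 in complex II, with 1 of 4. It was 0.01 in complex III (6 of 9), 0.05 in complex IV (9 of 11) and -0.01 in complex V (7 of 16), and Cycs stood at 0.05 (SE 0.08). Of all tested genes, 49.6% had fitted values above 0. In complex IV the median deviation from the gene's mean, on the log2 scale, was -0.01 and -0.06 in wild type 2 and 3. It was 0.09 in knockout 1 and -0.04 in knockout 3, so that the knockout libraries lay on opposite sides of the mean. In complex I the extremes were Ndufv2 and Ndufb4, the latter at 3.61 and 3.40 CPM in wild type, against 3.84 and 4.86 CPM in the knockout (log2 fold change 0.31, SE 0.28, unadjusted p = 0.271). Ndufa4, named for complex I and known as a subunit of complex IV, measured 60.4 and 60.1 CPM in wild type, against 70.8 and 66.2 CPM in the knockout. Its groups did not overlap, and its log2 fold change was 0.19 (SE 0.09, unadjusted p = 0.053, edgeR). The fold changes of the core subunits Ndufs1, Ndufs3, Ndufs7, Ndufs8 and Ndufv1 lay between -0.04 and 0.10.

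In complex II, Sdhc measured 46.2 and 47.1 CPM in wild type, against 42.2 and 43.2 CPM in the knockout (log2 fold change -0.13, SE 0.10), the most negative value of the complex. Sdhd measured 35.0 and 29.2 CPM in wild type, against 34.6 and 32.2 CPM in the knockout (0.06, SE 0.12), and its knockout libraries lay between the wild type ones. Sdha, the largest of the 4 by level, was at 651, 663, 656 and 636 CPM. In complex III, Uqcr10 had the most positive value, with 22.2 and 22.3 CPM in wild type, against 25.2 and 24.9 CPM in the knockout (log2 fold change 0.17, SE 0.13, unadjusted p = 0.187, edgeR). These extremes were picked by their fold changes in the same libraries. They were the only ones of the 9 genes to separate the groups, 1 above (11.1%) and 1 below (11.1%). Of all tested genes, 14.9% lay above and 15.2% below. Cyc1, Uqcrfs1, Uqcrc1 and Uqcrc2 lay between -0.03 and 0.05.

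In complex IV the extremes were Cox6b1, at 57.4 and 54.4 CPM in wild type, against 66.9 and 53.5 CPM in the knockout (log2 fold change 0.11, SE 0.11), and Cox7c, at 11.2, 10.8, 11.0 and 10.7 CPM in the same order (-0.02, SE 0.17). The high value of Cox6b1 came from knockout 1 only. Of the 11 genes of this complex, 0 separated the groups, beside 14.9% above and 15.2% below of all tested genes. Cox6a2 had a log2 fold change of 0.05 (SE 0.11, 95% interval -0.18 to 0.29). In complex V, Atp5j2 was the most negative, at 13.4 and 12.3 CPM in wild type, against 11.8 and 12.0 CPM in the knockout (-0.11, SE 0.16), and Atp5g2 the most positive (0.19, SE 0.28), with 5.41 CPM in knockout 1 above the other 3 libraries, which lay between 3.69 and 4.27 CPM. The catalytic subunits were measured most precisely: Atp5a1 stood at 1669 and 1730 CPM in wild type, against 1631 and 1633 CPM in the knockout (log2 fold change -0.06, SE 0.06), and Atp5b at 1389, 1503, 1419.9 and 1410.4 CPM (-0.03, SE 0.07). Atp5a1 was lower in both knockout libraries, by less than its SE.

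Summed over genes, the complexes moved little between libraries. Complex I summed to 2835 and 2838 CPM in wild type, against 2800.4 and 2794 CPM in the knockout, complex II to 834 and 833 against 829 and 801 CPM, and complex V to 4553 and 4573 against 4508 and 4403 CPM. For these 3 complexes both knockout sums were below both wild type sums by column totals, with ratios of knockout to wild type means of 0.986, 0.977 and 0.976. With TMM scaling the groups overlapped in all 3: complex I was at 2816 and 2855 CPM in wild type, against 2826 and 2770.35 CPM in the knockout, complex II at 829 and 838 against 836 and 794, and complex V at 4523 and 4600.3 against 4550.5 and 4366. Complex III, at 1089.8, 1049, 1077 and 1044 CPM by column totals, and complex IV, at 754, 713, 776 and 725 CPM, overlapped on both scales. Cycs, the only gene of its class, was higher in both knockout libraries on both scales, at 92.3 and 94.5 CPM against 95.2 and 97.5 CPM by column totals. An exact permutation test of 2 libraries against 2 cannot give a two-sided p below 0.333, and the sums were not tested. The summed parvalbumin neuron markers were also lower in both knockout libraries by column totals, and their part in these sums was not tested.

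**Figure D5:**
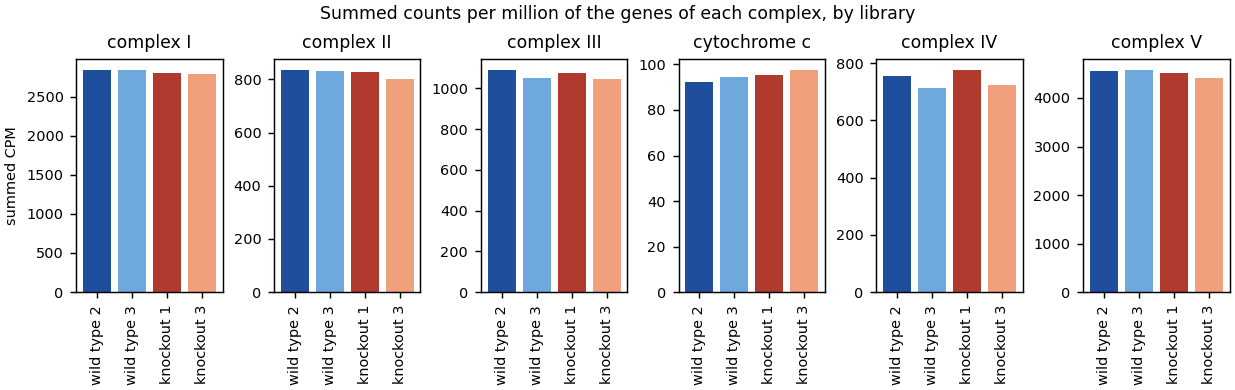
Summed CPM by column totals (y axis, from 0, a scale for each panel) of the genes of each complex in the 4 libraries; bars are single libraries and carry no error. Within each panel the 4 bars are of nearly equal height.

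Among members with short transcripts, libraries of the same genotype differed. Among the 33 members with under 1000 bases of exon, the median deviation from the gene's mean, on the log2 scale, was 0.02 and -0.045 in wild type 2 and 3 and 0.08 and -0.08 in knockout 1 and 3. The 2 knockout libraries thus stood at opposite ends. In the 14 members with 2000 bases or more the values were -0.003, 0.04, -0.03 and -0.03 in the same order. Over all 395 tested genes under 1000 bases the short-gene values were 0.02, -0.003, 0.02 and -0.03, in the same directions and nearer to 0 in each library. Knockout 1, with the high Rn45s, is the library where short members were highest, and the part of Rn45s in this was not tested. Over all 4 libraries the coefficient of variation of a member had a median of 6.06%, against 3.80% from counting alone and 6.37% for tested genes at 10 CPM or more.

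Among the other genes of the pathway, 0 passed the adjusted threshold in any list. Ndufab1, the acyl carrier protein of complex I, measured 4.64 and 4.56 CPM in wild type, against 3.64 and 3.50 CPM in the knockout (log2 fold change -0.36, SE 0.27), and Cox4i1 202 and 195 against 189 and 180 CPM (-0.10, SE 0.08). Of 14 tested assembly factors of complex I, 0 passed the adjusted threshold by edgeR and 0 had an unadjusted p under 0.05. The smallest p-values there were those of Ndufaf3 (-0.32, SE 0.18) and Nubpl, which supplies iron-sulfur clusters (0.62, SE 0.35, at 1.84 to 3.01 CPM). Of the factors of complexes II (2 tested), III (3), IV (22) and V (4, with the ATPase inhibitor Atpif1), 0 passed either threshold. Atpif1 stood at 322 and 278 CPM in wild type, against 294 and 272 CPM in the knockout.

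Among the genes of substrate supply, 0 passed the adjusted threshold and 1 of 40 had an unadjusted p under 0.05, beside 3.23% of all tested genes. Slc25a22, a mitochondrial glutamate carrier, measured 107 and 110 CPM in wild type, against 119 and 135 CPM in the knockout (log2 fold change 0.23, SE 0.08, unadjusted p = 0.0104, adjusted p = 0.998, edgeR). It was the only one of 11 carriers and porins below that level, and the porin Vdac2 followed (-0.12, SE 0.07, unadjusted p = 0.107). Of 16 tested genes of pyruvate dehydrogenase and the citric acid cycle, 8 had fitted values above 0 and 0 an unadjusted p under 0.05. Citrate synthase, Cs, stood at 356 and 353 CPM in wild type, against 345 and 318 CPM in the knockout (-0.10, SE 0.07), and Suclg1 at 123 and 135 against 116 and 122 CPM (-0.12, SE 0.08). Likewise 0 of 13 genes of coenzyme Q synthesis and 0 of 10 of cristae organisation had an unadjusted p under 0.05, with median log2 fold changes of 0.01 and -0.01.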

How the data were processed

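Ribosome-bound RNA was immunoprecipitated with tagged Rpl22 and sequenced with a stranded total RNA kit, per the labels' protocols. STAR and mm10 are named per the submitters' processing notes; the sources used here give no version, counting tool, annotation or use of strand. The table deposited by the authors holds raw counts for each gene symbol, not normalized. Genotypes came from the labels. A column was used where its name matched a single sample's title, which held for 4; 2 columns that share a title were not used, so 2 libraries were compared with 2. Counts were tested with edgeR 4.0.16 (R 4.3.3; TMM, filterByExpr, robust quasi-likelihood test, Benjamini-Hochberg, threshold 0.05), and checked on simulated data, where 8 of 197 calls were false. DESeq2 1.42.0, limma 3.58.1 (voom), other scalings, filters, gene lengths and leaving out each library were alternatives. Exon lengths and 50-base sharing came from GENCODE M21, promoters from RefSeq. No 2 libraries agreed within sampling noise (chi-square per degree of freedom 2.90 to 6.00 over genes). The lowest value was that of wild type 3 with knockout 3, and the highest that of knockout 1 with knockout 3. The libraries thus did not group by genotype on this measure. Members and lists were chosen with earlier results of these data known. Genes were named by rule: members with an unadjusted p under 0.05, the 2 highest and 2 lowest per kb and the extreme fold changes of each complex, core subunits, isoform sets, genes near the CPM minimum, and the 2 smallest p-values of each pathway list. The values of 1 member are not reported here and it is left out of the plots of single genes; counts, sums and medians include it.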

Additional observations from a re-analysis of the deposited data

How the results depend on the processing

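None of the 76 genes was called under any of the 12 alternatives, and their median log2 fold change stayed between -0.0567 and 0.0331, changing sign with wild type replicate 2 (0.0131) or knockout replicate 3 (0.0331) left out. The count of called genes over the whole table, 4, was 1 with library totals, 13 with no filter on low counts, 2 with the DESeq2 Wald test and 9 to 48 with each library left out in turn (48 without knockout replicate 3); fewer libraries are fitted there, and the cause was not tested. With Ndufa4 placed in complex IV, complex I summed to 2753 CPM and complex IV to 806 CPM. For 25 members whose fold change is given, the alternatives were run gene by gene. Leaving out 1 library in turn reversed the sign of 14, none of them called, with these log2 fold changes: Cox7c -0.0537 to 0.0157, Sdhd -0.0554 to 0.1878, Atp5b -0.0919 to 0.0377, Cox6b1 -0.0762 to 0.2734, Atp5g2 -0.1262 to 0.449, Cox6a2 -0.01 to 0.1111, Ndufs1 -0.0948 to 0.0039, Ndufs7 -0.0914 to 0.0625, Ndufs8 -0.1146 to 0.0524, Ndufv1 -0.0399 to 0.0727, Cyc1 -0.0449 to 0.1189, Uqcrfs1 -0.0046 to 0.1109, Uqcrc1 -0.0566 to 0.0095 and Uqcrc2 -0.0794 to 0.0841. An arm left with 1 library is assumed to vary like the other. The other 11 kept their direction, and 8 of them moved by over 1.5 times: Ndufb4 0.1453 to 0.4594, Ndufv2 -0.2503 to -0.1099, Atp5j2 -0.164 to -0.0585, Atp5a1 -0.0889 to -0.0215, Cycs 0.0236 to 0.0723, Cox6a1 0.0027 to 0.1356, Ndufa4 0.1232 to 0.247 and Ndufs3 0.0454 to 0.1563. No paired analysis was possible because numbers given in accession order pair no samples. The intervals of Ndufb4 and Atp5g2, the members under 10 CPM, reached beyond 1.5-fold; the part of depth in this was not tested.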
